A study of Mus musculus with 4 samples.

Results

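The genes described here are the 9 activin subunit, follistatin and activin receptor genes Inhba, Inhbb, Fst, Fstl1, Fstl3, Acvr1, Acvr1b, Acvr2a and Acvr2b. They were taken by symbol from 33641 genes, and all 9 were found. RNA was sequenced in 4 libraries of isolated cardiac fibroblasts from wild-type C57BL/6J mice aged 12 weeks, 2 from cells given a vehicle control and 2 from cells given 10 ng/ml TGFbeta. All cells, vehicle included, received the crosslinkable uridine analogue 4-SU 20 and 4 h ahead of crosslinking with 368 nm light. The design text speaks of RNA eluted from the RNA-binding protein HuR after PAR-CLIP, whereas the sample labels speak of total RNA, so every value below is a level in a library and nothing more. No input library was analysed here, and in bulk samples fewer cells of a type and less RNA per cell cannot be told apart.

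Activins are secreted dimers of beta subunits and belong to the TGF-beta superfamily. They bind a type II receptor (Acvr2a or Acvr2b), which recruits a type I receptor such as Acvr1b, and the type I receptor phosphorylates Smad2 and Smad3, the same transducers that TGF-beta uses. Follistatin and the follistatin-like protein Fstl3 bind activins outside the cell and keep them from their receptors. In the heart, activin A and the follistatin-like proteins are known as secreted products of fibroblasts and other cells that change with injury and fibrosis.

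With TGFbeta, the levels of 3 of the 9 genes passed the test. Fstl3 rose 2.87-fold, from a mean of 61.7 to 177 TPM (a transcript abundance scaled for length and to a fixed total per library). The beta B subunit gene Inhbb fell from 27.8 to 11.9 TPM, and the type I receptor gene Acvr1b fell from 39.8 to 16.3 TPM. Neither Inhba nor Fst nor either type II receptor gene passed. The test was limma on log2(TPM + 1) over 15815 genes, with the 0.05 threshold set on Benjamini-Hochberg adjusted p. Of all tested genes, 1.54% were called higher and 4.38% lower with TGFbeta, against 1 and 2 of the 9 here. The median log2 change was 0.17 over the 9 genes and -0.13 over all tested genes.

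Libraries of the 2 treatments did not overlap for 4 genes higher with TGFbeta (Inhba, Fstl1, Fstl3 and Acvr1) and for 2 lower (Inhbb and Acvr1b). Among all tested genes, 15.5% lay higher without overlap and 39.8% lower. The libraries of Fst, Acvr2a and Acvr2b overlapped.

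The fibroblast label was checked against marker genes. Summed over 10 fibroblast markers, the level was 20055 to 23698 TPM with vehicle and 19749 to 20812 TPM with TGFbeta. Within them Pdgfra and Tcf21 passed the test as lower. Their median log2 change was -0.34 over all 10 markers. Of the 10, 6 lay lower without overlap and 2 higher (Col1a1 and Col1a2), against 39.8% and 15.5% of all tested genes. Without Col3a1, the most abundant of these markers, the sum was 11037 to 12491 TPM with vehicle and 12770 to 14280 TPM with TGFbeta. Col1a1, part of that sum, had 3148 and 2392 TPM with vehicle and 6221 and 4272 TPM with TGFbeta. Summed markers of other cells were lower with TGFbeta for 3 lists, with or without the most abundant gene of each: 76.2 to 117 against 56.0 to 59.0 TPM for 10 cardiomyocyte genes, 46.9 to 51.3 against 41.3 to 43.3 TPM for 8 endothelial genes and 75.1 to 94.1 against 61.9 to 67.3 TPM for 8 macrophage and leukocyte genes. Median log2 changes of the tested genes in these 3 lists were -0.34, -0.23 and -0.08, against -0.13 over all tested genes. In the same order, 3 of 6, 4 of 7 and 2 of 7 tested genes lay lower without overlap, against 39.8% of all. Without Lyz2 the macrophage and leukocyte sum was 19.8 to 27.7 TPM with vehicle and 19.0 to 19.1 TPM with TGFbeta. The sum of 6 mural genes was 94.1 to 102 TPM with vehicle and 51.0 to 53.3 TPM with TGFbeta, but this order rested on Notch3. Notch3 had 74.0 and 83.9 TPM with vehicle and 21.1 and 17.4 TPM with TGFbeta. Abcc9 and Kcnj8 also lay lower without overlap, each below 1 TPM in every library. Without Notch3, the 5 mural genes left summed to 18.1 to 20.1 TPM with vehicle and 29.9 to 35.9 TPM with TGFbeta. The median log2 change of the 4 tested mural genes was 0.43. Within the 5, Rgs5 had 13.5 TPM in TGFbeta 2, against 1.95 TPM in TGFbeta 1 and 2.26 and 2.47 TPM with vehicle. Cspg4 had 12.4 and 10.7 TPM with vehicle and 22.5 and 16.7 TPM with TGFbeta. The 6 epicardial genes summed to 14.4 to 17.1 against 12.1 to 12.5 TPM, and without Upk3b the groups overlapped (4.96 to 5.25 and 4.74 to 5.78 TPM). Of the markers of other cells only Notch3 passed the test. No listed marker was at 0 in every library, and the cardiomyocyte gene Myh6 lay between 0 and 0.394 TPM. The part of these cells in the results below was not tested.

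HuR binds U-rich and AU-rich stretches of RNA, so the 3′ UTRs of the 9 genes were searched for the AU-rich nonamer TTATTTATT and the pentamer ATTTA on the transcript strand. The pentamer is contained in the nonamer. For each gene the GENCODE M21 (GRCm38) coding transcript with the longest 3′ UTR was used, and the libraries do not say which transcript was made. The nonamer was found in 4 of the 9 genes, at 8 places, against 8.31% of 13578 tested genes with a 3′ UTR. Those 13578 had a median 3′ UTR length of 1170.5 bases, against 1105 to 4492 bases in the 9 genes. A longer 3′ UTR offers more places for a match, and length was not allowed for in these shares. The 8 sites are printed because the study is about HuR and the nonamer is a well-known AU-rich element, with the nonamer in capitals.
Inhba site 1, chr13:16029046-16029074, plus strand: cttatatttaTTATTTATTggaatcaatc
Inhba site 2, chr13:16031030-16031058, plus strand: agctatattaTTATTTATTtttatgcata
Inhba site 3, chr13:16031455-16031483, plus strand: atagcagaagTTATTTATTtctattccat
Fst site 1, chr13:114453250-114453278, minus strand: aagtgtatgcTTATTTATTtggggggaaa
Fst site 2, chr13:114453005-114453033, minus strand: agagcagttgTTATTTATTgtgaggtctc
Fst site 3, chr13:114452835-114452863, minus strand: tctgtcatgtTTATTTATTggattctcag
Fstl3, chr10:79781506-79781534, plus strand: catcccgattTTATTTATTgttatagaaa
Acvr1, chr2:58446873-58446901, minus strand: actttgcaaaTTATTTATTactggtgcac

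Inhba and Fst held 3 nonamers each, and Fstl3 and Acvr1 held 1 each. The Inhba 3′ UTR is 4492 bases long, longer than 94.1% of those compared, and held 21 pentamers. That of Fst is 1514 bases long with 10 pentamers, or 6.61 per kb, the highest density of the 9 and above the median of 1.30 per kb over the genes compared. Acvr1 had 5.43 pentamers per kb and Inhba 4.67. Inhbb, Fstl1, Acvr1b, Acvr2a and Acvr2b held no nonamer, with pentamer densities from 0.652 per kb in Acvr2b to 2.87 per kb in Acvr2a. Of the 4 genes with a nonamer, 1 passed the test (Fstl3), and of the 5 without, 2 did (Inhbb and Acvr1b). Over all tested genes 1.54% were called higher and 4.38% lower. These shares were not counted apart for genes with and without a nonamer. A link between the nonamer and the change with TGFbeta was not tested, and so few genes cannot show one. A match to these letters is not a measured HuR site, and no binding was measured at it.

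**Figure D1:**
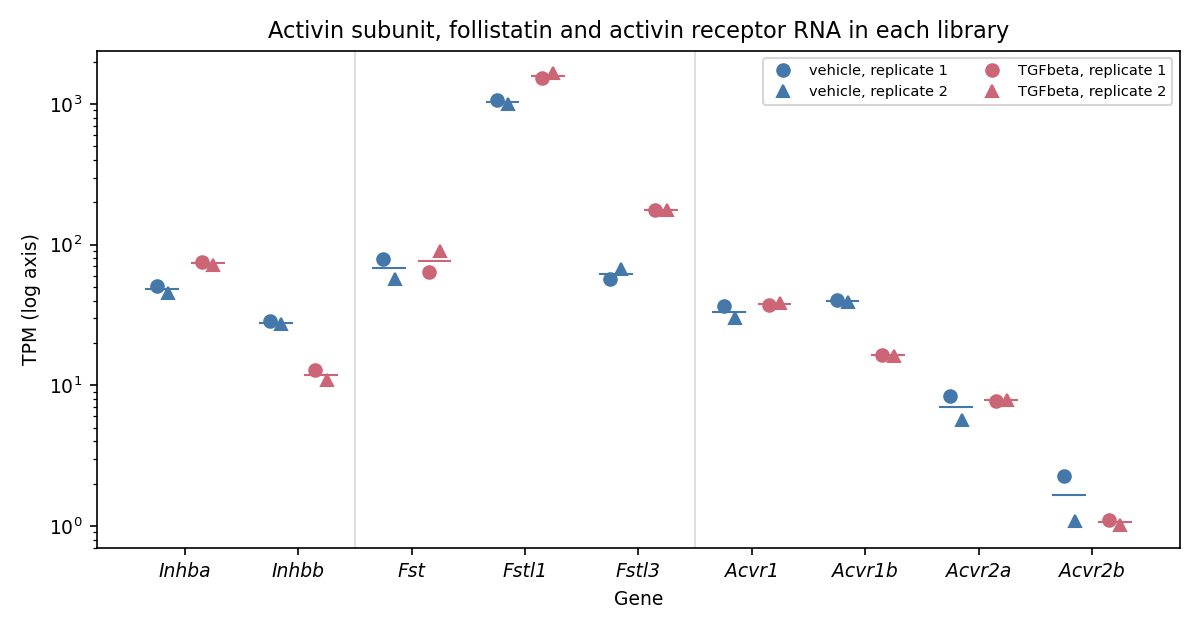
TPM of each gene (log axis) in the 4 libraries, with vehicle in blue, TGFbeta in red, circles for replicate 1, triangles for replicate 2 and a line at each group mean. Fstl1 lies far above the other genes, Fstl3 moves up, and Inhbb and Acvr1b move down without overlap between the groups.

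Among the ligand genes, Inhba encodes the beta A subunit, whose dimer is activin A (ENSMUSG00000041324.14, GRCm38 chr13:16011851-16031621, plus strand). The vehicle libraries held 51.2 and 45.0 TPM, and the TGFbeta libraries 75.0 and 72.0 TPM. Both TGFbeta libraries lay above both vehicle libraries, 1.53-fold in the means. The log2 change of Inhba was 0.60 (SE 0.14) and missed the threshold (limma adjusted p = 0.0598). It passed after median scaling (0.76, limma adjusted p = 0.0334) and quantile normalization (0.73, limma adjusted p = 0.0391), which put the median change of all tested genes at 0.03 and 0.02 in place of -0.13. It also passed in a robust fit (limma adjusted p = 0.0483), and under a stricter filter, a mean TPM of 5 or more (0.0350). Among protein-coding genes it passed as well (limma adjusted p = 0.0309). Of 14 alternative settings Inhba passed in these 5 only. It did not pass without an intensity trend (limma adjusted p = 0.104) or with every gene above 0 tested (0.115). Whichever library was left out, its log2 change lay between 0.51 and 0.69.

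Inhbb encodes the beta B subunit (ENSMUSG00000037035.5, chr1:119415465-119422248, minus strand). It had 28.5 and 27.1 TPM after vehicle, against 12.9 and 10.9 TPM after TGFbeta. The libraries within each treatment lay close together and those of TGFbeta were at 0.428 of the vehicle mean. Its log2 change was -1.16 (SE 0.16, limma adjusted p = 0.0200). Leaving out vehicle 1, vehicle 2, TGFbeta 1 or TGFbeta 2 ended the call (limma adjusted p = 0.141, 0.163, 0.0650 and 0.0842, in that order), as did testing every gene above 0 (0.0803), with a log2 change between -1.27 and -1.05 whichever library was left out.

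The 2 beta subunit genes thus lay in opposite directions. Inhba was 1.80 and 1.66 times the level of Inhbb after vehicle, against 5.81 and 6.60 times after TGFbeta. Summed, they reached 75.9 ± 5.34 TPM after vehicle and 85.4 ± 3.56 TPM after TGFbeta (mean ± SD over 2 libraries). The sum therefore moved less than either gene, and Inhba made up more of it with TGFbeta.

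Other subunits that can pair with these chains were low. Inha, which encodes the alpha subunit that turns an activin chain into an inhibin, had 6.94 and 8.34 TPM with vehicle and 4.90 and 4.07 TPM with TGFbeta. Its libraries did not overlap, but its log2 change of -0.65 did not pass (limma adjusted p = 0.113). Inhbe, a subunit gene best known from liver, had 1.72 to 2.25 TPM over the 4 libraries, and Inhbc was above 0 in 1 library only, at 0.0370 TPM. These 3 genes were singled out after their values were seen.

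Among the antagonist genes, Fstl3 encodes a secreted follistatin-like protein that binds activins and myostatin (ENSMUSG00000020325.10, chr10:79777272-79782630, plus strand). It had 56.7 and 66.8 TPM after vehicle, against 176.7 and 177.2 TPM after TGFbeta. The groups were far apart compared with the spread within either. The log2 change of Fstl3 was 1.51 (SE 0.14, limma adjusted p = 0.00819), the largest increase of the 9. It kept its call on leaving out TGFbeta 1 or TGFbeta 2 (limma adjusted p = 0.0429 and 0.0336). Leaving out vehicle 1 or vehicle 2 ended it (log2 change 1.39 and 1.62, limma adjusted p = 0.0899 and 0.0933), as did testing every gene above 0 (0.0604). Prss57, a protein-coding gene on the opposite strand that overlaps Fstl3, had at most 1.73 TPM in any library.

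Fst encodes follistatin, the main activin-binding protein (ENSMUSG00000021765.9, chr13:114452290-114458951, minus strand). It had 79.2 and 56.9 TPM after vehicle, against 64.0 and 89.6 TPM after TGFbeta. The groups overlapped, with the lowest library in vehicle and the highest in TGFbeta. Fst had a log2 change of 0.17 (SE 0.23, limma adjusted p = 0.698), and its sign turned without vehicle 2 (-0.0633) and without TGFbeta 2 (-0.0678). Neither a rise nor a fall of Fst could be told from the spread between these libraries.

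Fstl1 encodes a secreted glycoprotein with a follistatin-like domain that is made by cardiac fibroblasts and epicardium and is not a classical activin trap (ENSMUSG00000022816.11, chr16:37776873-37836514, plus strand). The vehicle libraries held 1075 and 995 TPM, and the TGFbeta libraries 1529 and 1651 TPM. Both TGFbeta libraries lay above both vehicle libraries, 1.54-fold in the means. Fstl1 had a log2 change of 0.62 (SE 0.15), which missed the threshold (limma adjusted p = 0.0697). It passed after median scaling (0.77, limma adjusted p = 0.0488), with a mean TPM of 5 or more (0.0459) and among protein-coding genes (0.0369). Of 14 alternative settings Fstl1 passed in these 3 only. It did not pass after quantile normalization (0.52, limma adjusted p = 0.114), without an intensity trend (0.0943) or with every gene above 0 tested (0.165). Whichever library was left out, its log2 change lay between 0.56 and 0.67. Fstl1 alone took 78.0% and 78.5% of the summed TPM of the 9 genes after vehicle, against 79.6% and 80.0% after TGFbeta. Its mean level was above that of 99.4% of tested genes.

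Since TPM is scaled for length, levels of different genes were set side by side within a library. These are orders of library levels only. If the libraries hold RNA eluted from HuR, they need not be the orders in the cells. Fstl3 was at 0.716 and 1.17 times the level of Fst with vehicle and at 2.76 and 1.98 times with TGFbeta. With vehicle the 2 antagonist genes did not differ beyond their spread, and with TGFbeta Fstl3 was the higher in both libraries. Fst and Fstl3 together reached 129.7 ± 8.65 TPM after vehicle and 254 ± 18.4 TPM after TGFbeta (mean ± SD over 2 libraries).

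The ratio of summed Inhba and Inhbb to summed Fst and Fstl3 was 0.587 and 0.584 after vehicle, against 0.365 and 0.311 after TGFbeta. Both TGFbeta libraries lay below both vehicle libraries, and leaving out any 1 library gave a log2 change of this ratio between -0.91 and -0.68. Its fall went with the rise of Fstl3, from 61.7 to 177 TPM in the means. Fst overlapped between the groups (means 68.0 and 76.8 TPM), and the subunit sum rose from 75.9 to 85.4 TPM. The ratio of Inhba to Fst alone was 0.647 and 0.792 with vehicle and 1.17 and 0.804 with TGFbeta. The second vehicle and second TGFbeta libraries were nearly equal in it. Its log2 change was 0.44 with all 4 libraries. Leaving out vehicle 1 gave 0.29, vehicle 2 0.59, TGFbeta 1 0.17 and TGFbeta 2 0.71. The ratios are given as values without a test. Of those in this report, only the ratio of Inhba to Fst was among the planned comparisons. Each of the others contains a gene that passed the test (Inhbb, Fstl3 or Acvr1b), so its shift is not a separate result. An exact permutation test of a single value over 4 libraries has 6 arrangements and cannot go below p = 0.333.

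**Figure D2:**
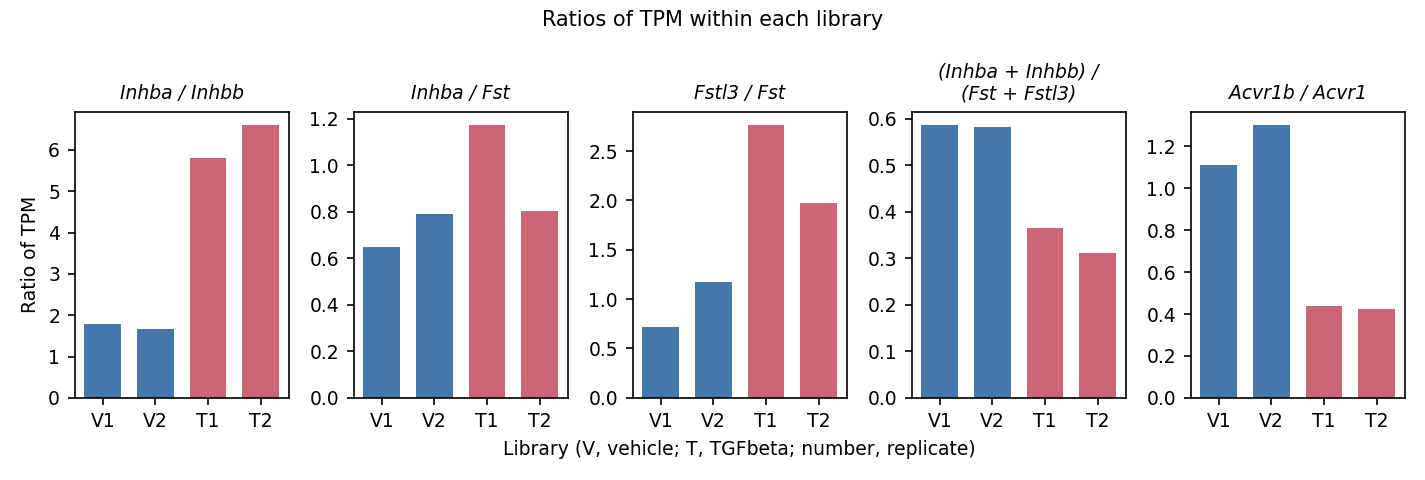
Ratios of TPM within each library for 5 pairs of genes or sums, with vehicle libraries (V) in blue and TGFbeta libraries (T) in red. Inhba over Inhbb goes from 1.80 and 1.66 to 5.81 and 6.60 and Acvr1b over Acvr1 from 1.11 and 1.30 to 0.437 and 0.423, while Inhba over Fst shows little distance between the groups.

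Of the type I receptor genes, Acvr1b encodes the receptor through which activins activate Smad2 and Smad3 (ENSMUSG00000000532.11, chr15:101174067-101213684, plus strand). It had 40.4 and 39.3 TPM after vehicle, against 16.3 and 16.2 TPM after TGFbeta. Replicates were nearly equal within each treatment, and the TGFbeta mean was 0.409 of the vehicle mean. The log2 change of Acvr1b was -1.24 (SE 0.14, limma adjusted p = 0.0116), the largest decrease of the 9. Its call ended on leaving out vehicle 1, vehicle 2, TGFbeta 1 or TGFbeta 2 (limma adjusted p = 0.116, 0.129, 0.0608 and 0.0574, in that order) and on testing every gene above 0 (0.0604), while the log2 change stayed between -1.26 and -1.22 whichever library was left out.

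Acvr1 encodes a type I receptor that mostly serves bone morphogenetic proteins (BMPs) and acts through Smad1 and Smad5 (ENSMUSG00000026836.15, chr2:58388644-58567157, minus strand). It had 36.3 and 30.2 TPM after vehicle, against 37.4 and 38.4 TPM after TGFbeta. The libraries did not overlap, but the lower TGFbeta library was close to the higher vehicle library. Acvr1 had a log2 change of 0.19 (SE 0.15, limma adjusted p = 0.4996). Acvr1b was at 1.11 and 1.30 times the level of Acvr1 with vehicle and at 0.437 and 0.423 times with TGFbeta, so the order of the 2 type I receptor genes turned in both libraries.

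Of the type II receptor genes, Acvr2a (ENSMUSG00000052155.5, chr2:48814109-48903269, plus strand) had 8.40 and 5.65 TPM with vehicle and 7.72 and 7.91 TPM with TGFbeta. Both TGFbeta libraries lay between the vehicle libraries. Acvr2a had a log2 change of 0.16 (SE 0.22, limma adjusted p = 0.717), and it turned to -0.0928 without vehicle 2. Orc4, a gene on the opposite strand that overlaps Acvr2a, had 44.0 to 73.2 TPM, and whether reads were counted by strand is not given in the sources used here.

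Acvr2b (ENSMUSG00000061393.14, chr9:119402118-119434995, plus strand) was the lowest of the 9, with 2.25 and 1.08 TPM with vehicle and 1.11 and 1.01 TPM with TGFbeta. The first vehicle library stood above the other 3 libraries. Acvr2b had a log2 change of -0.33 (SE 0.28, limma adjusted p = 0.523), and it was -0.01 without vehicle 1 and -0.66 without vehicle 2. The type II receptor genes together reached 8.69 ± 2.77 TPM after vehicle and 8.87 ± 0.0715 TPM after TGFbeta (mean ± SD over 2 libraries). The type I receptor genes together reached 73.1 ± 5.20 and 54.2 ± 0.666 TPM.

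In vehicle libraries the order of mean levels was Fstl1, Fst, Fstl3, Inhba, Acvr1b, Acvr1, Inhbb, Acvr2a and Acvr2b. Of the neighbours in this order, Fst and Fstl3 overlapped between libraries and the other pairs did not. With TGFbeta the order was Fstl1, Fstl3, Fst, Inhba, Acvr1, Acvr1b, Inhbb, Acvr2a and Acvr2b. Here Fst and Inhba overlapped and the other neighbours did not. In both orders the type II receptor genes were the lowest, below every ligand, antagonist and type I receptor gene.

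**Figure D3:**
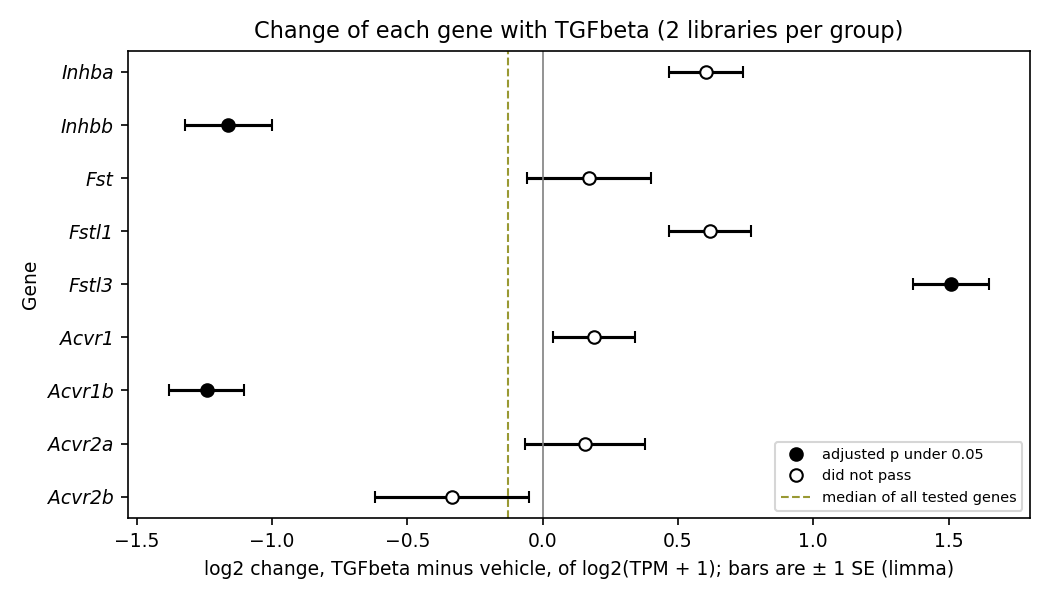
The log2 change of each gene (TGFbeta minus vehicle, log2(TPM + 1)) with a bar of 1 SE to each side from limma, filled where the adjusted p passed 0.05. The dashed line marks the median of all tested genes (-0.13). Fstl3 at 1.51 stands on one side and Inhbb at -1.16 and Acvr1b at -1.24 on the other.

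The 250 bases before the RefSeq transcript start (GRCm38.p6) are printed for the 3 genes that passed the test, as the promoter sequence beside which their levels changed. A promoter was found in the table for 8 of the 9 genes. The motifs searched, on both strands, were CAGAC (printed as GTCTG where it lies on the opposite strand), a box that Smad3 and Smad4 can bind, and TGANTCA, the core of AP-1 sites. The motifs do not overlap each other, matches are in capitals and all other bases are in lower case.
Fstl3, chr10:79777024-79777273, plus strand: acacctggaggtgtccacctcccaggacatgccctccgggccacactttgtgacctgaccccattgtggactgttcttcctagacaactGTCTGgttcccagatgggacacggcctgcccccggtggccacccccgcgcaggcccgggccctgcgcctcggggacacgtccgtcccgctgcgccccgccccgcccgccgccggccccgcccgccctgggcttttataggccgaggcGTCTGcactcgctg
Inhbb, chr1:119422249-119422498, minus strand: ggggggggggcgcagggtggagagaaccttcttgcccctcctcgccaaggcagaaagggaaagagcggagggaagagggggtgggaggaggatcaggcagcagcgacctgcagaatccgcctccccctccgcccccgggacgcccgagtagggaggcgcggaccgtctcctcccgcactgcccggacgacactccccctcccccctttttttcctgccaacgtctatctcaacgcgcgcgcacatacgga
Acvr1b, chr15:101173822-101174071, plus strand: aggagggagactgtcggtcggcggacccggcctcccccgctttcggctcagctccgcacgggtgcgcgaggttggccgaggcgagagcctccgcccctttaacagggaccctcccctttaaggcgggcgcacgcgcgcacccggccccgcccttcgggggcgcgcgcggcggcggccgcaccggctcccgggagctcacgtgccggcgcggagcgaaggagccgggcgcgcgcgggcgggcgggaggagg

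The Fstl3 window held CAGAC at 2 places, starting 161 and 14 bases before the transcript start, both on the opposite strand. The Inhbb and Acvr1b windows held none. Of the other windows, Acvr2a and Acvr2b held 1 each and Inhba, Fstl1 and Acvr1 none. TGANTCA was found in none of the 8. Of 32851 promoters in the table, 42.2% held CAGAC on either strand and 6.75% held TGANTCA, so a single match is common. The GC content was 71.2% for Fstl3, 68.0% for Inhbb and 78.8% for Acvr1b, against 43.2% for Inhba and a median of 52.4% over all promoters. A match is a description of the letters and was not measured as a site.

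Other genes of activin signalling and of related branches of the family were counted in 6 lists, against the 1.54% of tested genes called higher and 4.38% lower. Among other ligands of the superfamily, 2 of 11 tested genes rose, 1 fell and 8 did not pass (median log2 change -0.06). Gdf6, which encodes a growth and differentiation factor of the BMP branch, had 228 and 147 TPM with vehicle and 439 and 415 TPM with TGFbeta, and it rose by 1.21 (SE 0.22, limma adjusted p = 0.0364). Gdf15, which encodes a stress-induced distant member of the family whose known receptor is not an activin receptor, rose by 0.93 on the log2 scale, from 43.5 to 84.5 TPM in the means (limma adjusted p = 0.0487). Bmp4, which encodes a BMP that signals through other type I receptors and Smad1 and Smad5, had 229 and 232 TPM with vehicle and 59.0 and 73.7 TPM with TGFbeta, a log2 change of -1.79 (limma adjusted p = 0.00690). Without Gdf15, 1 of 10 tested ligand genes rose, 1 fell and 8 did not pass (median -0.07). The myostatin gene Mstn and Bmp10 were listed at 0 in every library.

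Of the proteases that cut ligand precursors or release them, 0 of 6 tested genes were called by limma (2 at an unadjusted p under 0.05; median log2 change -0.29). The convertase gene Pcsk6 had 264 and 282 TPM with vehicle and 194 and 164 TPM with TGFbeta (log2 change -0.61, limma adjusted p = 0.0639). Pcsk6 passed in 2 of 14 alternative settings, a mean TPM of 5 or more (limma adjusted p = 0.0369) and protein-coding genes only (0.0309). After median scaling it did not pass (-0.46, limma adjusted p = 0.167). Bmp1, which encodes a protease of procollagen and of ligand antagonists, had 208 and 199 against 178 and 159 TPM (log2 change -0.27, limma adjusted p = 0.277). In both genes the TGFbeta libraries lay below the vehicle libraries. Of the 6 tested genes, 4 lay lower without overlap and 2 higher, against 39.8% and 15.5% of all tested genes. The 2 higher were Tll1 and the convertase gene Furin, with 121 and 134 TPM after vehicle and 191 and 142 TPM after TGFbeta. Furin and Tll1 were named after their values were seen.

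Among other genes with follistatin-like domains, 1 of 10 tested genes rose, 1 fell and 8 did not pass (median -0.27). Tmeff1, which encodes a membrane protein with such domains, rose by 1.58 on the log2 scale, from 4.82 to 16.4 TPM in the means (limma adjusted p = 0.0242). Sparcl1, which encodes a matricellular protein related to Sparc, fell by 1.03, from 37.4 to 17.8 TPM (limma adjusted p = 0.0229). Among other antagonists and co-receptors, 0 of 10 tested genes rose, 3 fell and 7 did not pass (median -0.09). For Chrdl1, which encodes a BMP antagonist, the log2 change was -1.63 (limma adjusted p = 0.0233). That of Tgfbr3, which encodes betaglycan, a co-receptor for inhibin and TGF-beta, was -1.04 (limma adjusted p = 0.0352), and that of Rgma, which encodes a BMP co-receptor, was -0.92 (limma adjusted p = 0.0447).

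Of the other receptors of the family, 0 of 6 tested genes rose, 1 fell and 5 did not pass (median -0.02). Acvrl1, which encodes a type I receptor for BMP9 and BMP10 best known from endothelium, had 382 and 397 TPM with vehicle and 248 and 207 TPM with TGFbeta (log2 change -0.78, limma adjusted p = 0.0402). Its TPM was thereby above that of any of the 4 activin receptor genes in every library. Of the intracellular transducers and regulators, 1 of 17 rose, 2 fell and 14 did not pass (median -0.10). Pmepa1, which encodes a membrane protein that limits Smad2 and Smad3 signalling, rose by 1.54 (limma adjusted p = 0.0166). Smad6, which encodes an inhibitory Smad of the BMP branch, fell by 1.75 and Smad3 by 1.09 (limma adjusted p = 0.00766 and 0.0316).

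All 12 of these calls ended on leaving out vehicle 1 or vehicle 2 and on testing every gene above 0, with adjusted p up to 0.264 for Rgma (limma). Of the 12, Bmp4, Smad6 and Pmepa1 kept their calls on leaving out TGFbeta 1 or TGFbeta 2, and the other 9 lost theirs on leaving out either. Without an intensity trend Gdf6, Gdf15, Smad3, Rgma and Acvrl1 did not pass, nor did Gdf15 with a pseudocount of 0.1. Rgma and Acvrl1 were also lost after median scaling and quantile normalization.

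**Figure D4:**
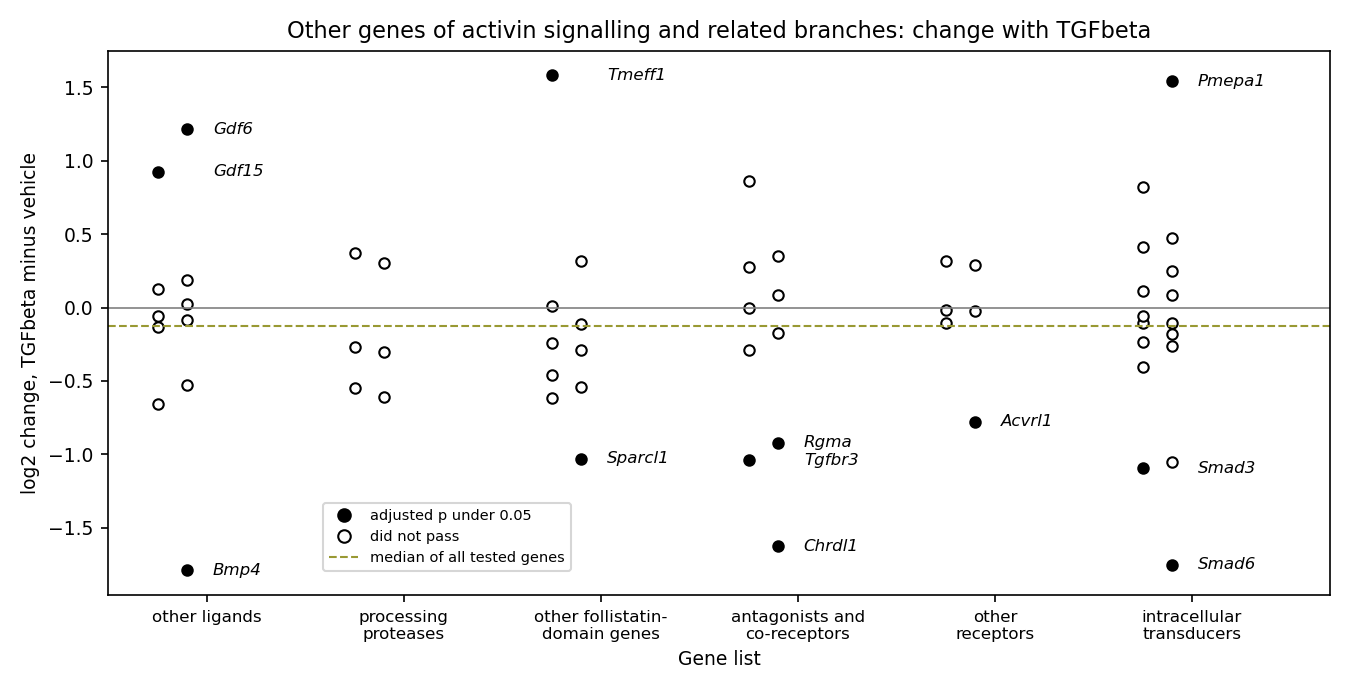
The log2 change (TGFbeta minus vehicle) of each tested gene in 6 lists of activin signalling and related branches, 1 point per gene, filled and named where the limma adjusted p passed 0.05. The dashed line is the median of all tested genes (-0.13). Named genes lie on both sides of 0, from Bmp4 at -1.79 to Tmeff1 at 1.58.

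The genes whose pattern was most like that of Fstl3 and of Acvr1b were sought among 10675 tested genes whose mean TPM reached 5, leaving out gene models with Gm or Rik names, by Euclidean distance of centred log2(TPM + 1) over the 4 libraries. Those nearest to Fstl3 were Gramd1b (distance 0.0925), Igf1 (0.0949) and Gxylt2 (0.161). Igf1, which encodes insulin-like growth factor I, had 37.3 and 43.1 TPM with vehicle and 117 and 125 TPM with TGFbeta. Those nearest to Acvr1b were Fbln7, which encodes a fibulin (0.0329), Cnp, which encodes a cyclic nucleotide phosphodiesterase of myelin (0.0466), and Cstad (0.0559). Fbln7 had 15.4 and 15.01 TPM with vehicle and 5.76 and 5.93 TPM with TGFbeta. With 4 libraries and 2 treatments many genes share such a shape, and the likeness is given as a description.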

How the data were processed

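The authors deposited 1 TPM value per gene symbol and library, per the file headers. The total was 1000000 in every library, so depth is unknown and counting intervals cannot be made. The aligner, quantifier, build and annotation behind them were not stated in the labels or headers. Levels were compared as log2(TPM + 1), a scale that understates changes of low genes, in the 15815 genes whose mean TPM reached 1 (all 9 members passed). Tests used limma 3.58.1 under R 4.3.3 (eBayes with an intensity trend, two-sided, treatment as the only term), with Benjamini-Hochberg adjustment over all tested genes and tested on simulated data. Fold values are ratios of mean TPM. Nothing in the labels tells whether replicates came from different cultures or animals, so p-values measure only the spread between these samples. Members and lists were chosen with earlier results of these data known. Named were all members, the called genes of each list (otherwise its 2 most abundant) and the 3 nearest patterns of 2 members. Alternatives were pseudocounts of 0.1 and 5, other filters, scalings and variance models, a replicate block and each library left out. Restriction to protein-coding genes was chosen after seeing the data. Positions and 3′ UTRs come from GENCODE M21, matched by symbol.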

Additional observations from a re-analysis of the deposited data

How the results depend on the processing

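With all 4 libraries 244 genes were called higher and 692 lower by limma. After median scaling these were 421 and 401, after quantile normalization 333 and 401, and among protein-coding genes 427 and 1285; 437 were lower without an intensity trend. When every gene above 0 was tested, 0 and 0 genes were called (1040 and 3308 at an unadjusted p under 0.05), and 0 and 0 of the 9 members (3 and 2 unadjusted). Leaving out 1 library gave 0 to 65 genes higher and 0 to 138 lower, 0 to 1 members higher and 0 lower (2 at an unadjusted p under 0.05 each time); the genes fell to 0 without either vehicle library (964 and 2069 unadjusted without vehicle 1, 549 and 1858 without vehicle 2). Members called higher were 3 with a mean TPM of at least 5, after median scaling and among protein-coding genes, and 2 after quantile normalization and in the robust fit, the additions being Inhba and Fstl1. Signs turned for Fst (-0.0633 without vehicle 2, -0.0678 without TGFbeta 2, and up to 0.41 with another library left out) and Acvr2a (-0.0928 without vehicle 2, and up to 0.41). The cause of these shifts was not tested. With the replicate number as a block, 186 genes were higher and 445 lower, with 1 and 2 members as before. The block ended 4 of the 12 calls in the other lists, those of Gdf15, Tgfbr3, Rgma and Acvrl1 (limma adjusted p = 0.0682, 0.0539, 0.0673 and 0.0673). Samples of 1 number did not deviate together (r = -0.05 across tested genes), so they share only a number. With 1 library left out, the lone library is assumed to vary like the other group. Depth is unknown, so limits on low genes such as Acvr2b cannot be given.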
